A study of Mus musculus with 21 samples.

Results

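Mouse embryonic fibroblasts that carried Spib, Irf8 and Ikzf2 for 9 days were split by whether they held a transcript of Ptprc, the gene of the leukocyte surface phosphatase CD45. Each cell was first thinned at random to 10000 unique molecular identifiers (UMIs, counts of single captured transcripts), and shallower cells were dropped. Cells were thus chosen by their measured Ptprc count, and a cell with at least 1 Ptprc UMI among those 10000 was called positive and a cell with 0 negative, within each of 2 reporter lines. Of 1763 deposited cells, 1588 reached the depth, and 350 of them were positive and 1238 negative. The whole series holds 25991 cells in 21 libraries.

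The study delivered sets of transcription factors to fibroblasts by lentivirus and profiled sorted cells with a droplet 3′ single-cell assay 3 or 9 days later. The Ikzf2 set, abbreviated SII, consists of Spib, Irf8 and Ikzf2. The Clec9a line had the genotype Clec9aCre/Cre Rosa26stopflox-tdTomato/tdTomato, and its cells were sorted as DAPI-negative and tdTomato+. The hCD2 line had the genotype hCD2Cre/WT Rosa26stopflow-YFP/WT, and its cells were sorted as DAPI-negative and YFP+. In both lines a stop cassette keeps the reporter silent until Cre is made, so every cell analysed had switched on the Clec9a-driven or the human CD2-driven Cre, in the positive and in the negative class. Each line gave 1 library at day 9 and 1 at day 3. Cultures were grown on gelatin in DMEM with 10% serum. The comparison libraries were 2 of untransduced wildtype fibroblasts (MEF) and 1 each of wildtype splenic type 1 and type 2 conventional and plasmacytoid dendritic cells (cDC1, cDC2 and pDC), which had been sorted on surface proteins.

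CD45 is a receptor-type tyrosine phosphatase of nucleated blood cells and is absent from fibroblasts. It removes an inhibitory phosphate from kinases of the Src family and so sets the threshold at which immune receptors signal through adaptors that bear immunoreceptor tyrosine-based activation motifs (ITAMs) and through Syk. Spib is an ETS-family factor close to PU.1, Irf8 is an interferon regulatory factor of dendritic cells and monocytes, and Ikzf2 is an Ikaros-family zinc finger protein.

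In the Clec9a line 124 of 508 day 9 cells were positive, or 24.4% (exact 95% binomial interval 20.7 to 28.4). In the hCD2 line 226 of 1080 cells were positive, or 20.9% (18.5 to 23.5). With all deposited UMIs in place of 10000 the shares were 33.7% of 643 and 30.0% of 1120 deposited cells. Both day 9 shares lay below those of the same lines at day 3, which were 74.9% of 2071 cells and 38.2% of 1314 cells. The day 9 intervals of the lines overlapped, while the day 3 shares lay far apart. None of 1983 and 1718 MEFs had a Ptprc UMI, with exact 95% upper limits of 0.186% and 0.214% (3 counts, the floor used elsewhere, would be 0.151% and 0.175%). With Spib and Irf8 alone the Clec9a line reached 0.289% at day 3 and 1.92% at day 9. The matching hCD2 libraries were shallow and kept 11 and 31 cells, none of them positive, with exact 95% upper limits of 28.5% and 11.2%. The splenic cells were at 96.3% in cDC1, 99.9% in cDC2 and 99.7% in pDC. These shares describe the values that chose the cells and were not tested.

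**Figure D1:**
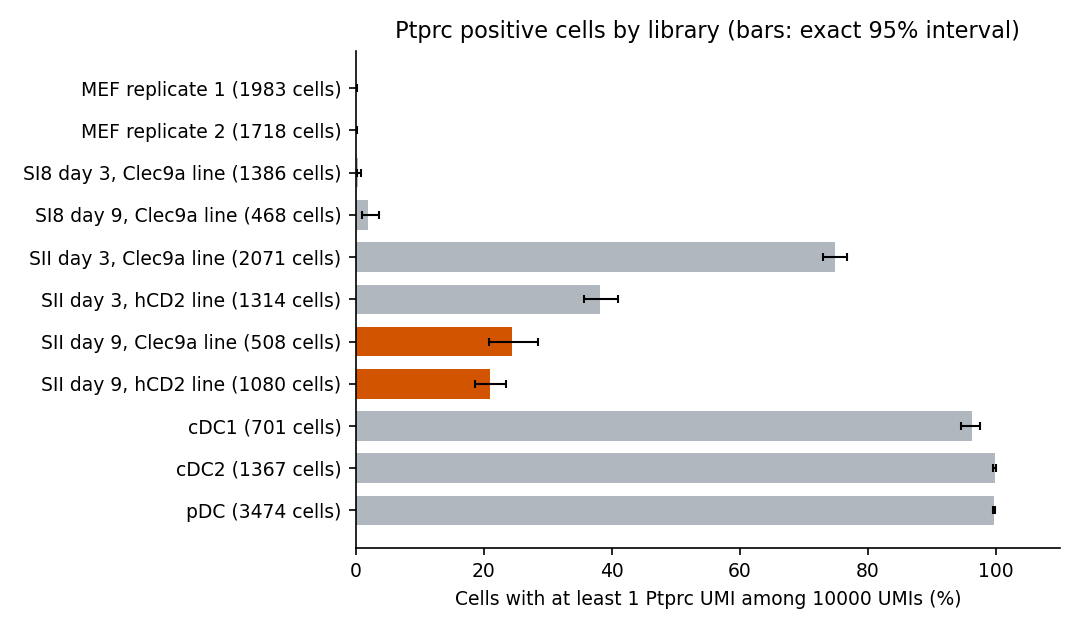
Share of cells with at least 1 Ptprc UMI after thinning to 10000 UMIs (horizontal axis, percent) in MEF, in fibroblasts with Spib and Irf8 (SI8), in SII fibroblasts of each line and day, and in splenic dendritic cells. Bars show the share and whiskers the exact 95% binomial interval; the orange bars are the day 9 SII libraries, at 24.4% and 20.9%, between MEF at 0 and the dendritic cells at over 96%.

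The split carried over to transcripts that it had not read. In the UMIs left after thinning, Ptprc stood at 312 CPM (UMIs per 1000000 UMIs) in the positive and 6.54 in the negative cells of the Clec9a line, and at 312 and 7.19 CPM in the hCD2 line. Of the negative cells, 14.6% in the Clec9a line and 12.6% in the hCD2 line still held a Ptprc UMI among these leftover counts. These libraries hold no cell type that lacks Ptprc for certain, so the part of free RNA in that share was not tested. At the threshold itself, 57 of the 124 positive cells of the Clec9a line held exactly 1 thinned UMI, 23 held 2 and 44 held 3 or more. In the hCD2 line these numbers were 73, 51 and 102. Over all counts the positive cells held 322 and 319 CPM of Ptprc, against 682 in pDC, 471 in cDC1 and 1682 in cDC2. Their Ptprc therefore lay below that of each splenic type.

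Positive cells were slightly shallower than negative ones. The median was 52133 against 59898 UMIs per cell in the Clec9a line and 48020.5 against 56914 in the hCD2 line. At equal depth the classes had nearly the same complexity, with a median of 3075 against 3085.5 and of 2990 against 3064.5 genes per 10000 UMIs. Mitochondrial transcripts made up 2.80% against 2.55% and 3.02% against 3.00% of UMIs. The 4 day 9 sums of counts held 6205133 and 11443716 UMIs in the positive class and 22023645 and 49282608 in the negative class. No cell barcode was shared between the day 9 libraries. A doublet caller marked 0 and 4 cells of the positive and negative class in the Clec9a line and 2 and 4 in the hCD2 line.

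In positive cells all 3 delivered factors and 10 of 21 tested genes that leukocytes share were higher. So were 5 of 10 tested genes of a paired receptor and lectin list, while 10 of 23 tested fibroblast matrix genes were lower. Across 13852 genes tested, 631 were higher and 521 lower in positive cells at day 9, together 1152 genes or 8.32% (edgeR quasi-likelihood test with the library as a block, Benjamini-Hochberg adjusted p under 0.05). The higher genes were 4.56% and the lower genes 3.76% of those tested. Of the called genes, 126 were at least 2-fold higher and 218 at least 2-fold lower. The direction was the same in both lines for 1148 of the 1152 called genes, or 99.7%, and for 65.7% of all genes tested. The calls came from a fit to these same 2 lines, which favours genes that agree between them. The 99.7% is therefore no separate test of agreement. The calls depended more on the hCD2 than on the Clec9a day 9 library. Of 124 called genes named by rule, most lost their call without the hCD2 day 9 library. Most kept it without the Clec9a day 9 library. Summing only the thinned UMIs gave 629 called genes, and no filter on low counts gave 1980.

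The genes that differed were sorted by tissue of origin. All 3 splenic dendritic cell libraries lay above both MEF libraries for 343 of the 631 higher genes, or 54.4%, and for 32.1% of all genes tested. For the lower genes the share was 5.95%. All 3 dendritic cell libraries lay below both MEF libraries for 393 of the 521 lower genes, or 75.4%, against 37.5% of all genes and 20.6% of the higher genes. These shares describe the genes and were not tested.

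**Figure D2:**
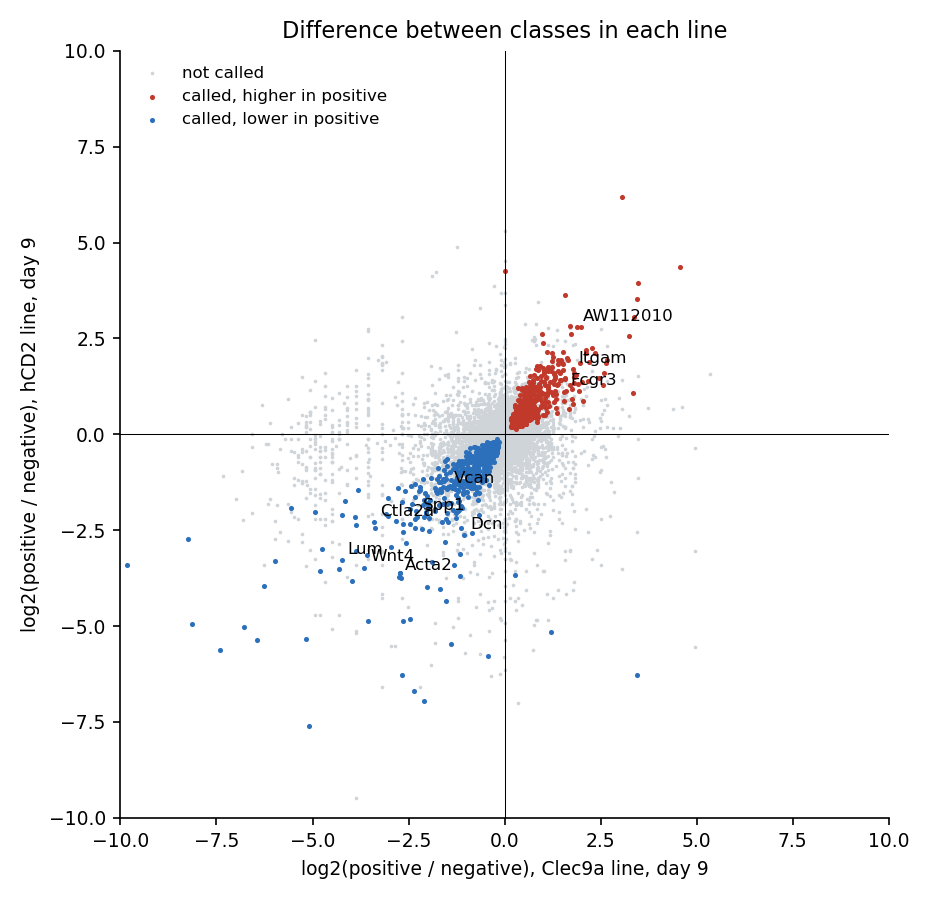
Difference between positive and negative cells at day 9 for each gene tested (log2 CPM, positive minus negative) in the Clec9a line (horizontal axis) against the hCD2 line (vertical axis); coloured points are genes called higher or lower and grey points the rest. Called genes fill the upper right and lower left parts of the plot, 1148 of 1152 with the same sign in both lines, which the call itself favours. Outside the plotted range lies 1 tested gene.

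All 3 delivered factors were higher in positive cells at day 9. Spib was at 41.3 CPM in the Clec9a line and 37.8 in the hCD2 line in positive cells, and at 24.2 and 21.6 in negative cells. The classes did not overlap, which held for 44.6% of all genes tested. The difference was 0.86 ± 0.08 (SE) on the log2 scale (edgeR adjusted p = 0.00606). Ikzf2 was at 31.3 and 37.7 CPM against 25.2 and 24.2 (log2 difference 0.57 ± 0.11, edgeR adjusted p = 0.0291), and Irf8 at 29.7 and 28.1 against 23.7 and 20.8 (0.46 ± 0.07, edgeR adjusted p = 0.0179). In the Clec9a line 1 positive cell held 19.9% of its class's Spib UMIs. Over all counts a Spib UMI was seen there in 63.7% of positive and 58.9% of negative cells. In the hCD2 line these shares were 66.8% and 51.9%. For Irf8 they were 60.5% and 59.6% in the Clec9a line and 54.9% and 53.0% in the hCD2 line. For Ikzf2 they were 64.5% and 64.1%, and 63.7% and 60.2%. The counts do not tell transcripts of the delivered copies from those of the cells' own genes. MEFs held no Spib UMI and 0 and 0.0208 CPM of Irf8, but about 10 CPM of Ikzf2, at 10.1 and 9.71. The summed level of the 3 factors was 69.5, 118, 82.6 and 139 thinned CPM in Clec9a-line cells with 0, 1, 2 and 3 or more Ptprc UMIs. In the hCD2 line it was 71.7, 75.3, 106 and 144. The rise was thus not steady in the Clec9a line, and these steps were not tested.

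Leukocyte structural and adhesion genes were split. Of 21 tested genes of a list common to most leukocytes, 10 were higher, 1 was lower and 10 were not called, with a median log2 difference of 0.67 against -0.01 for all genes tested. Coro1a, an actin regulator of leukocytes, was at 112 and 82.6 CPM in positive and at 54.8 and 41.2 in negative cells. The difference was 1.09 ± 0.07 on the log2 scale (edgeR adjusted p = 0.00265). Itgb2, the β2 integrin CD18, was at 60.0 and 58.7 CPM against 25.5 and 20.4 (1.46 ± 0.14, edgeR adjusted p = 0.00614). Laptm5, a lysosomal protein of blood cells, was at 72.0 and 111 against 48.4 and 52.0, and the tetraspanin Cd37, the cortactin-like Hcls1 and the actin nucleation factor Was were higher by 1.27, 1.26 and 1.11. The adaptor Fyb, the selectin ligand Selplg, the phosphatase Ptpn6 and the GTPase inhibitor Arhgdib completed the group, by 0.94, 0.96, 0.67 and 0.33. Cd44, a hyaluronan receptor that fibroblasts also make, went the other way, with 89.6 and 89.1 CPM against 135 and 151 (fell by 0.61, edgeR adjusted p = 0.0127).

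Not every leukocyte gene took part. Cd53, a tetraspanin of blood cells, was at 441 and 501 CPM in positive and 378 and 457 in negative cells, a difference that did not pass the test (edgeR adjusted p = 0.149). The actin bundler Lcp1 was at 0.322 and 0.262 CPM in positive cells, while the splenic libraries held 302 to 1048, and it did not pass either (edgeR adjusted p = 0.84). Ikzf1, the founding Ikaros factor, was at 0.645 and 0.175 against 0.0908 and 0.0609 CPM, and at 77.4 to 228 in the splenic cells. The summed list stood at 1671 and 1607 CPM in positive and 1310 and 1403 in negative cells, above MEF at 549.6 and 538 and far below the splenic cells at 10029.9 to 12814. Several defining leukocyte markers were thus near 0 in the positive cells, which are named here by the rule alone.

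Of 22 tested genes of the Src-kinase and ITAM pathway around CD45, 10 were higher and 12 were not called, with a median log2 difference of 0.36. Lyn, the main Src-family kinase of myeloid cells and a substrate of CD45, was at 278 and 279 CPM against 223 and 226 (0.38 ± 0.06, edgeR adjusted p = 0.0158). Syk, the kinase that docks on phosphorylated ITAMs, was at 59.8 and 65.2 against 48.6 and 36.9 (0.65 ± 0.13, edgeR adjusted p = 0.0334). Csk, which places the inhibitory phosphate that CD45 removes, was higher by 0.34, and the Src-family kinase Fyn by 0.33. Downstream, the exchange factor Vav1 was higher by 1.04, the lipid phosphatase Inpp5d (SHIP1) by 0.95, the adaptors Pik3ap1 and Skap2 by 1.08 and 0.39, the lipid kinase subunit Pik3cd by 0.92 and the phospholipase Plcg2 by 0.59. The ITAM adaptors themselves were scarce. Fcer1g was at 1.45 and 1.66 CPM against 0.681 and 0.243 and missed the threshold (log2 difference 2.06, edgeR adjusted p = 0.11), and Tyrobp gave 2 and 0 UMIs in positive cells and 6 and 0 in negative cells of the Clec9a and hCD2 lines.

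Paired receptors share ligands but carry activating or inhibitory tails. The list called paired receptors here also holds lectins and Fgl2. It showed the highest median of the lists, at 0.94 over 10 tested members with 5 higher. Pira2, an activating receptor, was at 283 and 183 CPM in positive and 118 and 70.0 in negative cells (1.40 ± 0.08, edgeR adjusted p = 0.00228). Its inhibitory partner Pirb was at 324 and 274 against 164 and 119 (1.17 ± 0.09, edgeR adjusted p = 0.00418). Lilrb4a and Lilr4b, which resemble each other closely, were higher by 0.72 and 0.68. Reads of these near-identical receptors may be divided between copies. Fgl2, a fibrinogen-related protein of immune cells that the list includes, was at 402 and 340.4 CPM against 145 and 81.8 (1.84 ± 0.15, edgeR adjusted p = 0.00481). A Fgl2 UMI was seen at equal depth in 71.0% of positive and 44.5% of negative cells in the Clec9a line and in 50.4% and 26.5% in the hCD2 line. Both classes of a line came from 1 library, and the part of free RNA in these shares was not tested. The summed list was at 1621 and 1455 CPM in positive and 777 and 743 in negative cells, and at 10.3 and 9.67 in MEF.

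Among Fc receptors and phagocyte genes the changes were mixed. Fcgr3, an activating receptor for immunoglobulin G, was at 468 and 415 CPM against 165 and 204 (1.33 ± 0.14, edgeR adjusted p = 0.00853), and Fcgr2b, the inhibitory one, was lower by 2.27 on the log2 scale, a difference of -1.52 that did not pass when the highest 1% of cells were left out for each gene. Cybb, the catalytic subunit of the phagocyte NADPH oxidase, was at 271 and 344 against 199 and 162 (0.85 ± 0.15, edgeR adjusted p = 0.0243), and its partner Cyba was higher by 0.32. Of 16 tested genes of macrophages and monocytes 3 were higher and 4 lower, with a median of 0.10. The lower ones included Spp1, the secreted protein osteopontin, at 235 and 479.8 CPM in positive and 1187 and 2246 in negative cells (log2 difference -2.21 ± 0.23, edgeR adjusted p = 0.00853), the endotoxin co-receptor Cd14 (-1.01) and the glycoprotein Gpnmb (-1.09). MEFs held 7358 and 7455 CPM of Spp1, more than either class. The summed macrophage list was lower in positive cells, at 1589.8 and 1924 against 2135 and 3109 CPM. Spp1 carried that sum. Without Spp1 the list was higher in positive cells, at 1355 and 1445 against 948 and 863 CPM. This split was chosen after the values were seen. What remained still included Lyz2, at 316 and 264 against 32.6 and 132 CPM, which a few cells carried.

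Lyz2, the lysozyme of macrophages and neutrophils, needs a separate word. It was at 316 and 264 CPM in positive and 32.6 and 132 in negative cells (2.12 ± 0.48, edgeR adjusted p = 0.0495). In the Clec9a line 1 positive cell held 65.9% of the Lyz2 UMIs of its class, and in the hCD2 line 1 cell held 45.6%. With the highest 1% of cells left out for each gene the difference was 1.13 and did not pass (edgeR adjusted p = 0.0894). The class-wide level of Lyz2 at day 9 thus came from a few cells.

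**Figure D3:**
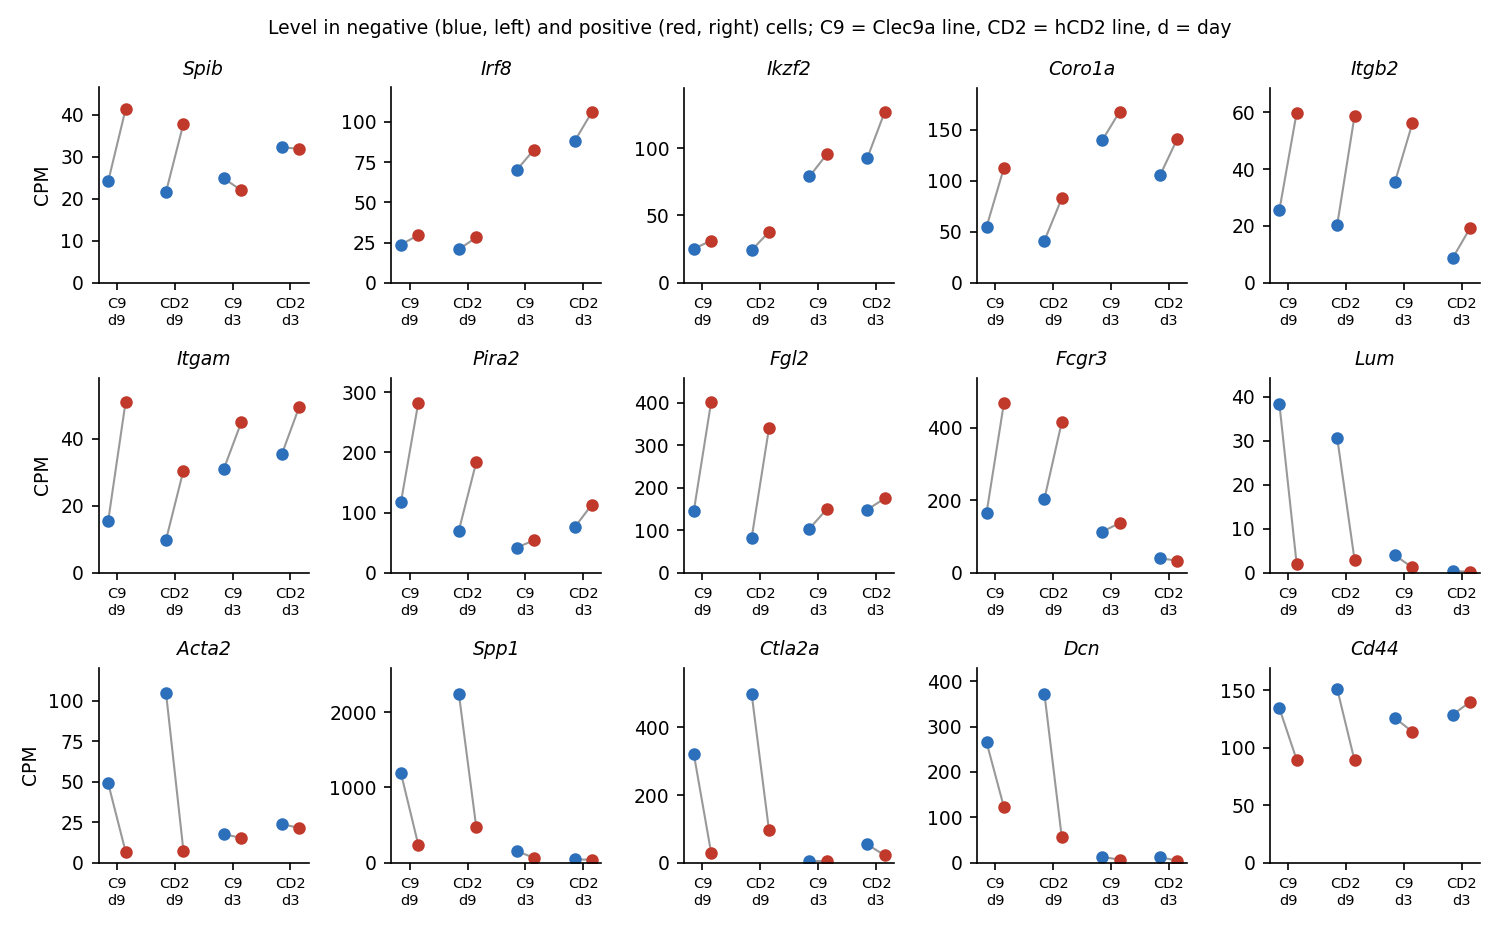
Level (CPM, each panel on its own linear axis from 0) of 15 genes in negative (blue) and positive (red) cells of each line at day 9 and day 3; a line joins the classes of 1 library. The day 9 slopes run upward for Spib, Irf8, Ikzf2, Coro1a, Itgb2, Itgam, Pira2, Fgl2 and Fcgr3 and downward for Lum, Acta2, Spp1, Ctla2a, Dcn and Cd44 in both lines, and the day 3 slopes are shown beside them.

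Some genes of each dendritic cell subtype were called. Of the tested cDC1 genes 4 of 10 were higher, of the cDC2 genes 4 of 11 and of the pDC genes 3 of 12, with medians of 0.44, 0.50 and 0.54. Itgam, the integrin chain CD11b of myeloid cells and the partner of Itgb2, was at 50.9 and 30.5 CPM against 15.5 and 9.88 (1.74 ± 0.07, edgeR adjusted p = 0.000912). Clec12a, an inhibitory lectin receptor, was at 363 and 217 against 190.3 and 109 (1.03 ± 0.06, edgeR adjusted p = 0.00265). The lysosomal phospholipase-family protein Pld4, on the pDC list, was at 295 and 261 against 208 and 118 (0.90 ± 0.15, edgeR adjusted p = 0.0207). On the cDC1 list the palmitoyl hydrolase Ppt1 was at 356 and 330.0 against 217 and 228 CPM (0.69 ± 0.06, edgeR adjusted p = 0.00559) and the regulator Id2 at 495 and 503 against 406 and 417 (0.35 ± 0.05, edgeR adjusted p = 0.0147). Xcr1, the chemokine receptor that defines cDC1, was called on few UMIs, at 2.26 and 0.874 CPM against 0.817 and 0.243, and did not pass when the highest 1% of cells were left out (log2 difference 2.28 against 1.69, edgeR adjusted p = 0.112). The interferon-inducible Ifi205 of the same list was lower (-1.95), as was Klf4 of the cDC2 list (-0.48).

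Genes of antigen presentation and maturation were mixed. Of 7 tested class II genes 1 was higher, the lysosomal protease Ctss at 67.0 and 64.2 against 34.0 and 39.9 CPM (0.89 ± 0.18, edgeR adjusted p = 0.034), and 1 lower. That one was H2-Aa, with 1 and 0 UMIs in positive and 113 and 9 in negative cells. The 113 UMIs lay in 12 of 384 negative cells of the Clec9a line, and 3 cells held 66.4% of them. The 9 UMIs lay in 7 of 854 negative cells of the hCD2 line, so this call rests on few cells. The list median was -0.65, and the summed list was at 186 and 117 CPM in positive and 260.1 and 78.3 in negative cells, so the lines went opposite ways. Of 11 tested maturation genes 3 were lower, namely the costimulatory ligand Cd80 (-2.13), the actin bundler Fscn1 (-0.65) and Marcksl1 (-0.90). Of 13 class I genes, Tapbp and Tapbpl were higher (0.28 and 0.44) and the peptide transporter Tap1 lower (-0.30).

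Blood-cell transcription factors other than the delivered ones moved in part. Of 16 tested, 4 were higher. The ETS factor Fli1 was at 28.2 and 27.6 CPM in positive and 18.7 and 15.5 in negative cells (0.80 ± 0.10, edgeR adjusted p = 0.00972), and Irf5 and Zeb2 were higher by 0.51 and 0.47. Spi1, which encodes PU.1, was too low to be tested: at equal depth 1 positive cell in each line and no negative cell held a UMI. Genes of stem and progenitor cells went down where they moved: Ly6a (Sca-1) was at 549 and 624 CPM against 1056 and 1095 (-0.81 ± 0.07, edgeR adjusted p = 0.00606) and Sox4 was lower by 0.87. No thinned UMI of the receptors Kit or Flt3 was seen in any of the 1588 cells, which allows up to 0.857% of positive and 0.242% of negative cells with a UMI at this depth and sets no limit on cells that express them at a low level.

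Other blood lineages were checked by their own markers. The B cell list summed to 14.2 and 17.2 CPM in positive and 18.2 and 14.7 in negative cells, and the T and NK cell list to 5.32 and 12.5 against 5.40 and 20.01. No UMI of Cd3e, Siglech or C1qa was seen at equal depth, Cd79a was seen in 1 negative cell of the hCD2 line, and Adgre1 in 1 negative cell of the Clec9a line. The granulocyte list, mostly Lcn2, summed to 1224 and 1263 against 1470 and 1270 CPM, and its called member S100a8 was lower through 3 negative cells of the hCD2 line that held 85.7% of that class's S100a8 UMIs. S100a8 took the opposite sign without that library, at 1.24. The RNA-quality transcripts Gm42418, AY036118 and Lars2 made up 0.553% and 0.125% of UMIs in positive and 0.467% and 0.146% in negative cells, so the lines differed more than the classes, and none of the 5 transcripts of that kind tested reached an edgeR adjusted p under 0.217.

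**Figure D4:**
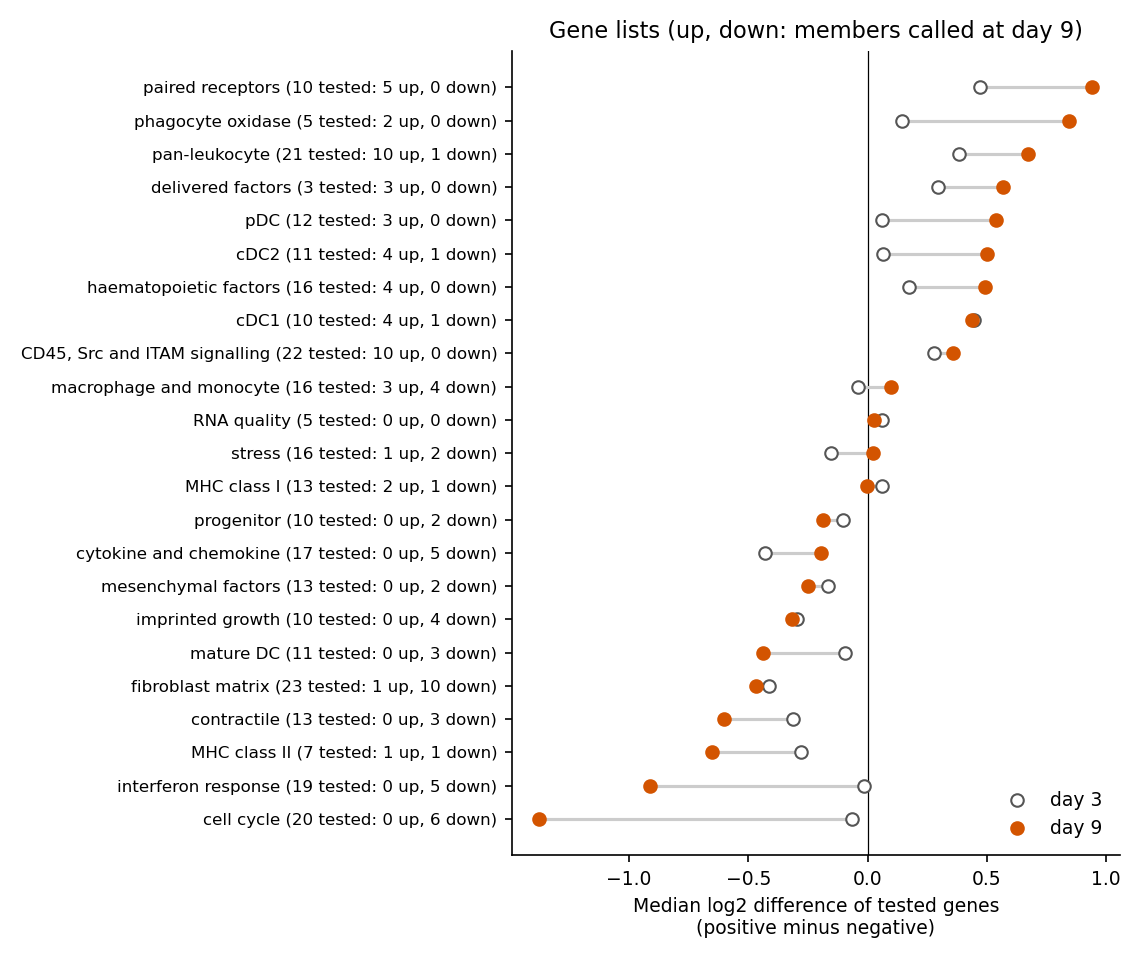
Median log2 difference between positive and negative cells at day 9 (filled) and day 3 (open), over the tested members of each gene list drawn. The labels give how many members were tested and how many were called higher (up) or lower (down) at day 9. Among the lists drawn, paired receptors (0.94), phagocyte oxidase (0.85) and leukocyte genes (0.67) lie furthest right. Cell cycle (-1.38) and interferon response genes (-0.91) lie furthest left. The B cell, T and NK cell and granulocyte lists are not drawn. The granulocyte list had a day 9 median of -1.12 over 3 tested members.

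Fibroblast matrix genes were lower where they were called, with 1 exception. Of 23 tested, 10 were lower and 1 higher, with a median of -0.47. In both lines 21 of the 23 were negative, against 4675 of all 13852 genes tested. Lum, the collagen-binding proteoglycan lumican, was at 1.93 and 2.97 CPM in positive and 38.4 and 30.7 in negative cells (-3.63 ± 0.25, edgeR adjusted p = 0.00353). A Lum UMI was seen at equal depth in 1.61% of positive and 7.55% of negative cells in the Clec9a line and in 2.65% and 8.78% in the hCD2 line. Bgn, the related proteoglycan biglycan, was at 11.9 and 9.35 against 38.0 and 34.6 (-1.72 ± 0.14, edgeR adjusted p = 0.00554), and Dcn, decorin, at 122 and 56.5 against 265 and 372 (-1.85 ± 0.34, edgeR adjusted p = 0.0278). The growth factor receptor Pdgfra was lower by 1.80, the crosslinking enzyme Lox by 1.02 and the secreted protein Sparc by 0.47.

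The chains of type I collagen, which assemble into one fibre, went opposite ways. Col1a1 was at 37.2 and 33.7 CPM in positive and 54.7 and 69.0 in negative cells (-0.75 ± 0.11, edgeR adjusted p = 0.0144). Col1a2 was at 244 and 246 against 173 and 145 (0.71 ± 0.10, edgeR adjusted p = 0.0135). MEFs held 5437 and 5409 CPM of Col1a1 and 4701 and 4562 of Col1a2, so that both classes lay far below MEF for both transcripts. The summed matrix list was 5100 and 5384 CPM in positive and 5859 and 6587 in negative cells, against 36903 and 36322 in MEF and 1.89 to 39.9 in the splenic cells.

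Contractile, mesenchymal and growth genes fell where they moved. Acta2, the smooth muscle actin of myofibroblasts, was at 6.93 and 7.51 CPM in positive and 48.9 and 105 in negative cells (-3.39 ± 0.19, edgeR adjusted p = 0.00228). Of the negative cells' Acta2 UMIs, 57.9% came from 1 cell in the Clec9a line and 32.7% in the hCD2 line, and without the highest 1% of cells the difference was -1.37 and still passed. Calponin, Cnn1, was lower by 2.57 and the tropomyosin Tpm1 by 0.62, 3 of 13 contractile genes in all. The limb mesenchyme factors Prrx1 and Prrx2 were at 84.0 and 65.7 against 146 and 184 CPM and at 24.98 and 59.5 against 62.8 and 115, lower by 1.09 and 1.03. Among imprinted genes 4 of 10 were lower. H19 had 4 and 0 UMIs in positive and 515 and 161 in negative cells, of which single cells held 77.3% and 66.5%, and Dlk1 was at 2.26 and 39.4 CPM against 14.7 and 210.2 with overlapping classes.

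The called proliferation, interferon response and cytokine genes were all lower. Of 20 tested cell cycle genes 6 were lower, with a median of -1.38. The nucleotide synthesis genes Rrm2 and Tyms were at 4.35 and 8.13 against 10.4 and 23.6 CPM and at 5.32 and 4.54 against 10.1 and 11.2. Mki67 had 0 and 1 UMIs in positive and 4 and 155 in negative cells, so that nearly all of these UMIs lay in the negative class of the hCD2 line. Plk1 had no UMI in positive cells and 2 and 63 in negative cells of the Clec9a and hCD2 lines. The 63 UMIs lay in 16 cells, and 3 of these held 54.0%, so no fold limit is given. Of 19 tested interferon response genes 5 were lower, with a median of -0.91. Isg15, a ubiquitin-like protein, was at 55.0 and 58.5 CPM against 103 and 143 (-1.05 ± 0.09, edgeR adjusted p = 0.00606), and Ifit1, Ifit3, Ifi44 and the RNA sensor Ddx58 were lower by 1.63, 1.52, 1.36 and 1.35. Among cytokines and chemokines 5 of 17 were lower, namely Cxcl1, Cxcl2, Ccl3, Il6 and Csf1, the last at 109 and 113 against 155 and 148 CPM. The summed list was nevertheless higher in positive cells, at 3179 and 2229 against 2473 and 2006 CPM. Of the negative cells' Cxcl2 UMIs in the Clec9a line, 97.6% came from 1 cell.

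Outside the lists, the genes with the largest rises above 20 CPM included AW112010, annotated as a long intergenic non-coding RNA, at 116 and 139 CPM in positive and 32.7 and 21.1 in negative cells (2.37 ± 0.20, edgeR adjusted p = 0.00559). In the Clec9a line 1 cell held 39.8% of its positive-class and 1 cell 41.1% of its negative-class UMIs. BC035044 was at 75.7 and 60.6 against 25.02 and 16.7 (1.81 ± 0.09, edgeR adjusted p = 0.00152), and no cell held more than 7.23% of its UMIs in any class. Ms4a4c, of a family of tetraspanning membrane proteins, the leukotriene receptor Cysltr1, the leukocyte myosin Myo1f, the myeloid membrane protein Lrrc25, the kinase inhibitor Pkib and the cytochrome Cyp4f18 were higher by 1.75, 1.65, 1.62, 1.66, 1.61 and 1.52. Nts, the neurotensin precursor, was at 1917 and 338 CPM against 492 and 139, with overlapping classes and 80.2% of the hCD2-line positive UMIs in 1 cell.

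The genes with the largest falls above 20 CPM included Lum, Acta2, Dlk1 and Spp1, described above, and 8 more. Wnt4, a signalling protein, was at 0.967 and 6.73 CPM in positive and 12.9 and 79.4 in negative cells (-3.50 ± 0.17, edgeR adjusted p = 0.00152). Ctla2a, a cathepsin inhibitor, was at 29.5 and 96.5 against 322 and 499 (-2.73 ± 0.25, edgeR adjusted p = 0.00614). The adipokine C1qtnf3, the junction protein Perp and Gm2115 were lower by 2.23, 2.06 and 2.03, and the steroid dehydrogenase Hsd3b6 was at 0 and 2.18 against 15.2 and 24.8 CPM. In the Clec9a line 1 negative cell held 71.6% of that class's Hsd3b6 UMIs, and 1 held 57.6% of its C1qtnf3 UMIs. The shares of the top negative cell in the hCD2 line were 18.6% and 8.64%. The growth factor Ptn, pleiotrophin, was at 0 and 1.49 against 4.68 and 48.7, but 1 negative cell held 85.0% of the hCD2-line UMIs. Without the highest 1% of cells Ptn (edgeR adjusted p = 0.0654) and the protease inhibitor-like Wfdc18 (edgeR adjusted p = 0.233) no longer passed.

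The promoter windows of the higher genes were read for GAGGAAGT, a PU-box form that ETS factors of the PU.1 and Spib kind are known to bind, on both strands. It was found in 37 of 505 higher genes with a promoter in the RefSeq table, or 7.33%. The share was 3.26% among 399 lower genes, 3.76% among 10602 genes tested and 3.20% of all 32851 promoters in the table. Of the genes with the largest changes, BC035044 among the higher and Spp1 among the lower hold it, and their windows (250 bases before to 50 after the start, RefSeq, GRCm38.p6, the motif in capitals) are shown as 1 example of each direction. A match is a run of letters and not a bound site.
BC035044, chr6:128891075-128891374, minus strand: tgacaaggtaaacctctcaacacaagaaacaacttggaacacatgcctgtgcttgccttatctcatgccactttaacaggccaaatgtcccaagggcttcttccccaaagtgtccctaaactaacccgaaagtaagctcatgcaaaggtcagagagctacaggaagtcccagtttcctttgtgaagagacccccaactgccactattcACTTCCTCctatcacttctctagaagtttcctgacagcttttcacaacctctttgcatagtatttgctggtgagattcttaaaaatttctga
Spp1, chr5:104434861-104435160, plus strand: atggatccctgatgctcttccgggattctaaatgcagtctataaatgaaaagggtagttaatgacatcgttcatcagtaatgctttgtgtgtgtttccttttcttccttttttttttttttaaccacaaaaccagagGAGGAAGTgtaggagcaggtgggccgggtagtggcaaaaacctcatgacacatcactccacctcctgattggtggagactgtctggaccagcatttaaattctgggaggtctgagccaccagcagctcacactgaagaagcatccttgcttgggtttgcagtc

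The level of several lists also differed with the number of Ptprc UMIs in a cell. Paired receptors summed to 857, 1470.2, 1461 and 1880 thinned CPM in Clec9a-line cells with 0, 1, 2 and 3 or more Ptprc UMIs, and to 793, 1153, 1265 and 1784 in the hCD2 line. Cells with a single Ptprc UMI were already well above the negative cells. The fibroblast matrix list summed to 5864, 5604, 5426 and 3775 thinned CPM in the Clec9a line and to 6379, 5910 (1 UMI), 4539 and 4742 in the hCD2 line. The leukocyte list stood at 1277, 1500, 1400 and 1848 and at 1402, 1442, 1565 and 1700.0. The lowest matrix values were in cells with 3 or more UMIs in one line and with exactly 2 in the other. These steps rest on 23 to 102 cells above 0 and were not tested, and a cell's Ptprc count is a noisy measure of its level.

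**Figure D5:**
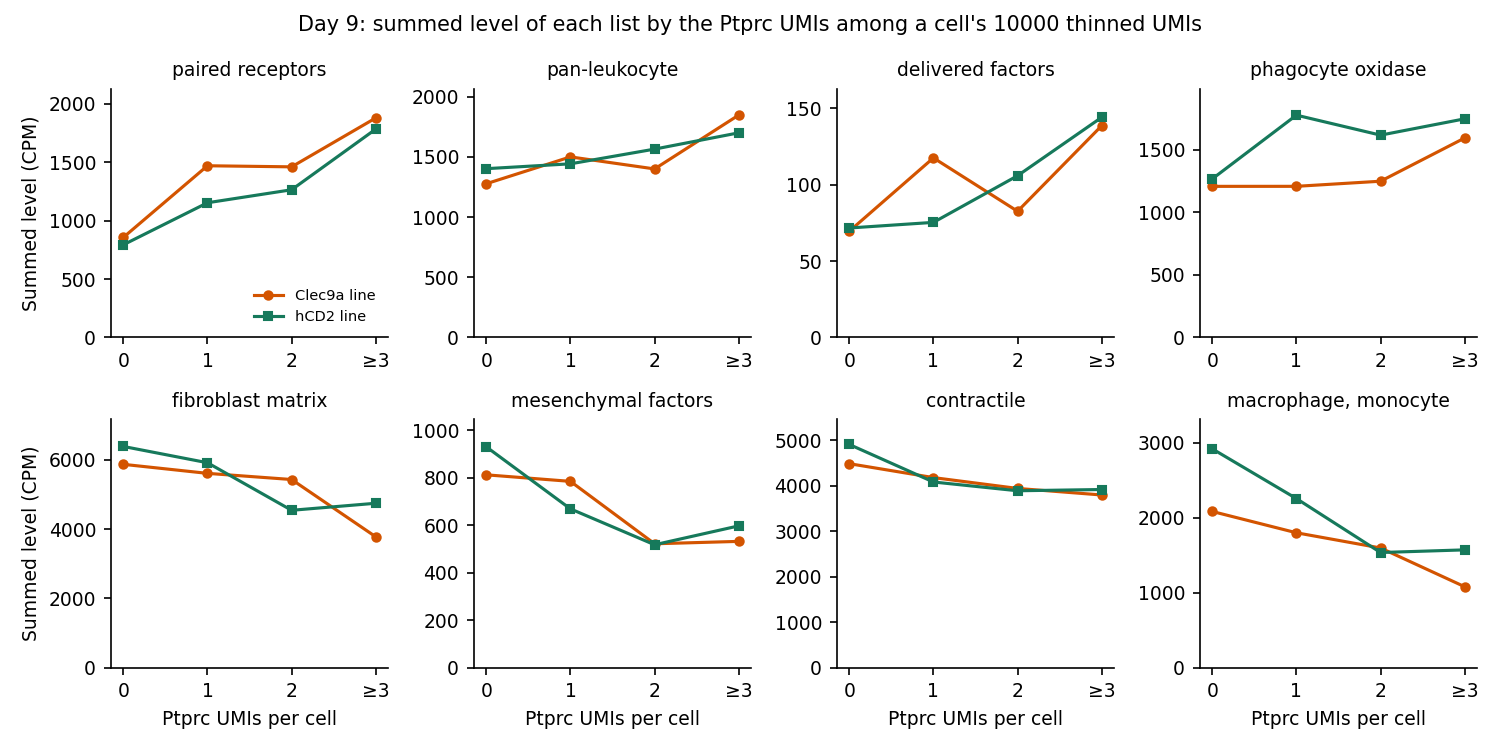
Summed thinned level (CPM, vertical axes from 0) of 8 gene lists in day 9 cells with 0, 1, 2 or 3 and more Ptprc UMIs among 10000, in the Clec9a line (orange circles) and the hCD2 line (green squares). Paired receptors stand at 857 and 793 in cells with 0 and at 1880 and 1784 in cells with 3 or more, while summed matrix and mesenchymal genes are lower in cells with 3 or more UMIs than in cells with 0; the macrophage sum is lower as well and is carried by Spp1.

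The same split at day 3 gave differences in mostly the same direction. With the same fit 10 of 13852 genes were called at day 3 (0.0722%; 2407 at an unadjusted p under 0.05, and 256 by DESeq2). That count is unstable: it ran from 17 to 500 when 1 library was left out and was 816 with no filter on low counts, so the counts of the days are not compared. Of the 631 genes higher at day 9, 523 or 82.9% were higher in both day 3 libraries, against 38.1% of all genes tested. Of the 521 lower genes, 399 or 76.6% were lower in both, against 29.6%. The fit took its spread from the day 3 libraries too, which favours genes whose class difference agrees between those libraries. These shares are therefore no separate test of agreement at day 3. The median log2 difference of the higher genes was 0.51 at day 9 and 0.19 at day 3, and that of the lower genes -0.87 and -0.31. The genes were chosen for passing at day 9, which favours larger values there, so these medians do not show that day 3 differences were smaller. The classes were less distinct at day 3: leftover Ptprc was at 405 and 235 CPM in positive and 55.3 and 21.1 in negative cells, and 62.5% and 35.8% of negative cells held a leftover Ptprc UMI. The part of this in the day 3 differences was not tested. Of the 10 genes, 9 were called at both days. Cd72, an inhibitory receptor of B cells and myeloid cells, averaged 609 against 262 CPM at day 9 and 145 against 106 at day 3, and the adhesion molecule Cadm1 was higher at day 3 alone in the calls, at 39.3 against 22.2 CPM; its change between the days did not pass (edgeR adjusted p = 0.135). The day 3 genes that were lower were Sulf2, Pdgfa, Nrp1, Ltbp2, Vcan, Lhfpl2, Anxa8 and Colec12.

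For 13 genes, or 0.0938%, the class difference itself changed between the days (edgeR adjusted p under 0.05 for the interaction; 1558 at an unadjusted p under 0.05). All 13 were also called at day 9. The class difference was more positive at day 9 for AW112010, BC035044, Cyp4f18, Itgam, Clec12a, Psen2, Cd72 and Tmsb4x, and more negative for Acta2, Ifit1, Sox11, Tnc and Dlk1. Clec12a was at 224 and 112 CPM in positive and 211 and 122 in negative cells at day 3, where the classes overlapped, and differed by 1.03 at day 9. Tnc, the matrix protein tenascin C, was at 15.9 and 15.5 against 13.6 and 14.0 CPM at day 3 and at 7.41 and 13.8 against 21.9 and 51.7 at day 9. Spib, at 22.0 and 31.9 against 24.8 and 32.2 CPM at day 3, differed by -0.05 there and by 0.86 at day 9, but that change did not pass (edgeR adjusted p = 0.0637). Without the hCD2 day 9 library 3 genes were called for the change between days, and without the Clec9a day 9 library 139.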

How the data were processed

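The authors deposited UMI counts per gene and cell; per the submitters' processing notes the reads were processed with Cell Ranger 6.0.1 and Seurat on mm10, and the filters on cells are not given in the sources used here. Deposited cells held 2501 to 99996 UMIs over 24455 genes, and 0 columns of per-sample values lacked a sample. Cells of the 4 SII libraries were thinned to 10000 UMIs without replacement (numpy 2.4.6), split by Ptprc, and all their counts were summed by library and class. The 8 sums were tested with edgeR 4.0.16 (R 4.3.3; TMM, filterByExpr, quasi-likelihood, Benjamini-Hochberg), with the library as a block, because both classes come from the same library, and 1 class effect per day (2 residual degrees of freedom); TMM factors were near 1, and 0.5 was added to counts for log values. The day 3 libraries share the spread. The fitting step was tested on simulated data. Ptprc chose the classes and has no test. CPM values are counts per 1000000 UMIs of a sum, ± values are SEs.

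Genes were named by rule: Ptprc, the delivered factors, the 12 largest differences each way among called genes with the same sign in both lines and at least 20 CPM in the higher class, called list members, and 6 for the difference between days; other genes were chosen after their values were seen. The cells and the 26 gene lists were chosen with earlier results of these data known. No set test was run. Libraries are not said to come from separate cultures or animals. With the library as a block, p-values measure how the class difference varies between these libraries of different reporter lines within a day. Intervals and floors of 3 counts cover counting error only. Scrublet (scanpy 1.11.5) marked 33 of 5163 SII cells as doublets, 0.639%; they were kept, and left out in an alternative. The day 3 libraries shared 1 cell barcode. Counts of Pira2 and Pirb, Lilrb4a and Lilr4b, H2 and Ifit genes may be divided between near-identical copies. Alternatives included DESeq2 1.42.0; 2 were added after seeing the data. Gene types come from GENCODE, promoters from RefSeq. Values of 1 called gene are not reported here.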

Additional observations from a re-analysis of the deposited data

Results flagged for a closer look

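For 10 of the genes named by rule the difference between positive and negative cells was itself different at day 9 and day 3, by the interaction term of the edgeR fit with an adjusted p under 0.05. The change in the log2 difference from day 3 to day 9 was 2.85 for AW112010, 1.54 for BC035044, 1.42 for Cyp4f18, 1.19 for Itgam and 1.01 for Clec12a. It was -3.24 for Acta2, -2.27 for Ifit1, -1.96 for Sox11, -1.95 for Tnc and -1.92 for Dlk1. Sox11, a factor of embryonic mesenchyme and neurons, was at 21.4 and 26.0 CPM in positive and 15.8 and 17.8 in negative cells at day 3, and at 3.87 and 6.90 against 8.54 and 21.5 at day 9. Ifit1 was at 34.1 and 9.16 against 22.4 and 6.05 CPM at day 3, where the lines differed more than the classes, and at 2.90 and 3.06 against 6.63 and 11.9 at day 9. AW112010 was at 80.4 and 4.50 against 112 and 6.87 CPM at day 3, and a few cells held much of its day 9 count. With the highest 1% of cells left out for each gene the change of Acta2 was -1.29 (edgeR adjusted p = 0.0518). Negative cells of day 3 held more leftover Ptprc than those of day 9, and the part of this in the changes was not tested.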

How the results depend on the processing

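The number of genes called at day 9, 1152, ran from 143 (83 higher, 60 lower) to 1229 when 1 library was left out, with 83 to 626 higher and 60 to 603 lower, and the lowest value came without the hCD2 day 9 library. It was 1980 (1127 and 853) with no filter on low counts, 629 (350 and 279) with thinned counts summed, and DESeq2 called 885 with 345 lower. With no replicate block, which ignores the pairing of the classes within a library, edgeR called 0 genes at day 9, at day 3 and for the difference (1615, 581 and 414 at an unadjusted p under 0.05), and all 124 named calls were lost. Other settings gave 1035 to 1445. The smaller counts moved most. Day 3, 10 genes, ran from 17 to 500 without 1 library and was 19 with RLE factors, 256 with DESeq2, 816 with no filter, 342 with thinned counts, 28 with a second seed, 420 at 20000 UMIs, 87 for 2 or more Ptprc UMIs against 0, 77 without doublets, 350 with negative cells that held no Ptprc UMI at all and 373 without the highest 1% of cells. The difference between days, 13 genes, ran from 3 to 139 without 1 library and was 131, 438, 94, 27, 100, 27, 62 and 61 with DESeq2, no filter, thinned counts, the second seed, 20000 UMIs, 2 or more Ptprc UMIs, Ptprc-free negative cells and without the highest 1%, and 4 at 5000 UMIs. The share of positive cells was 17.7% and 15.6% at 5000 UMIs and 24.0% in the hCD2 line at 20000. Lyz2 reversed to -0.15 at 5000 UMIs (edgeR adjusted p = 0.254), and S100a8 to 1.25 at 20000 UMIs and to 1.24 without the hCD2 day 9 library (without other libraries down to -5.18). The causes were not tested. With 2 residual degrees of freedom and 124 positive cells in the smaller class, low genes are limited by depth.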
